A study of Mus musculus with 8 samples.

Results

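A set of 10 genes through which macrophages take up and handle debris, lipoproteins and lipids was followed in the lungs of allergen-challenged mice. They were chosen by name, with earlier results of these data known. They are the scavenger receptors Marco, Msr1, Mrc1, Cd36 and Cd163, and the lipid-handling and lipid-response genes Trem2, Gpnmb, Spp1, Apoe and Pparg. They were found through the RefSeq accession of each array probe, which gave 13 probes for 10 genes out of 28992 genes or unnamed transcripts with a measurable probe. Whole-lung RNA came from 8 female BALB/c mice, 2 per group, and each mouse had 1 single-color array. The mice were bought at 4 weeks of age, housed for 2 weeks and then fed for 70 days.

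The NT mice ate standard feed and had no allergen. The other groups were injected intraperitoneally with ovalbumin (OVA) on alum on Days 42, 49 and 56, inhaled OVA daily from Day 63 to Day 69, and were examined 24 h after the last inhalation. Among them, Ctrl-F mice ate standard feed, Cap-F mice ate feed with empty carbonate apatite particles, and ODNcap-F mice ate feed with the same particles loaded with a CpG oligodeoxynucleotide, a DNA fragment that stimulates Toll-like receptor 9. The animals were wild type, so no gene was deleted or added. With 2 mice per group, exact permutation of the values of 1 gene gives no two-sided p below 0.333, and p-values below come from a limma fit across all probes, unless another test is named.

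Scavenger receptors bind a wide range of polyanionic ligands, such as oxidized lipoproteins, bacterial surfaces, inhaled particles and dying cells, and carry them into the phagocyte. The resident alveolar macrophage of a healthy lung clears surfactant lipid and particles from the air space, depends on the nuclear receptor PPARγ, and displays MARCO. Macrophages that arise from blood monocytes during inflammation or lipid loading can instead carry TREM2, GPNMB and osteopontin, and macrophages exposed to interleukin-4 and interleukin-13 increase the mannose receptor.

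Of the 10 genes, 7 differed from NT in every challenged group. Cap-F and ODNcap-F mice differed from NT in feed as well as in OVA. No unchallenged mice ate those feeds, so OVA and feed cannot be told apart there. In Ctrl-F, OVA injection and OVA inhalation cannot be told apart. Spp1, Trem2, Gpnmb, Msr1, Cd163 and Mrc1 rose, Marco fell, and Cd36, Apoe and Pparg did not pass the test. Calls required a fold change above 2 together with an adjusted p (Benjamini-Hochberg) below 0.05. In Ctrl-F against NT, 6 genes were called higher and 1 lower, where 10.5% of all genes tested were called higher and 12.2% lower. Cap-F against NT again gave 6 higher and 1 lower, beside 9.74% and 9.87% of all genes. In ODNcap-F against NT they were 6 and 1, beside 9.86% and 10.8%. Since the members were chosen with earlier results of these data known, the shares are a description and not a test of the set. The same 7 genes were called in all 3 comparisons, which share the NT mice. The median difference over the 10 genes was 2.40 on the log2 scale for Ctrl-F, 1.75 for Cap-F and 2.58 for ODNcap-F, beside -0.12, -0.11 and -0.12 over all genes.

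Lung RNA holds many cell types, and on these arrays a change in the number of cells of a type and a change in RNA per cell cannot be told apart. Marker levels that moved with the groups are given beside the results. NT shared row 1 of the slide with Ctrl-F, and Cap-F shared row 2 with ODNcap-F. In comparisons across the rows, row and group cannot be told apart, while Ctrl-F against NT and ODNcap-F against Cap-F lay within a row. Of all probes 64.8% to 65.0% were well above background on the NT arrays and 61.3% to 62.8% on the challenged arrays, and the detection floor, the lowest log2 signal well above background, was 3.61 to 3.64 and 3.93 to 4.18. The part of this in the differences from NT was not tested. The arrays had no saturated spot and correlations of 0.994 to 0.996 between the mice of a group. Of 8 lung tissue markers (Sftpc, Sftpb, Sftpa1, Lamp3, Abca3, Ager, Scgb1a1 and Foxj1), each stayed under a fold change of 2 in all 6 comparisons, and their mean log2 level was 15.63 to 15.64 in NT and 15.24 to 15.39 in the challenged mice.

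**Figure D1:**
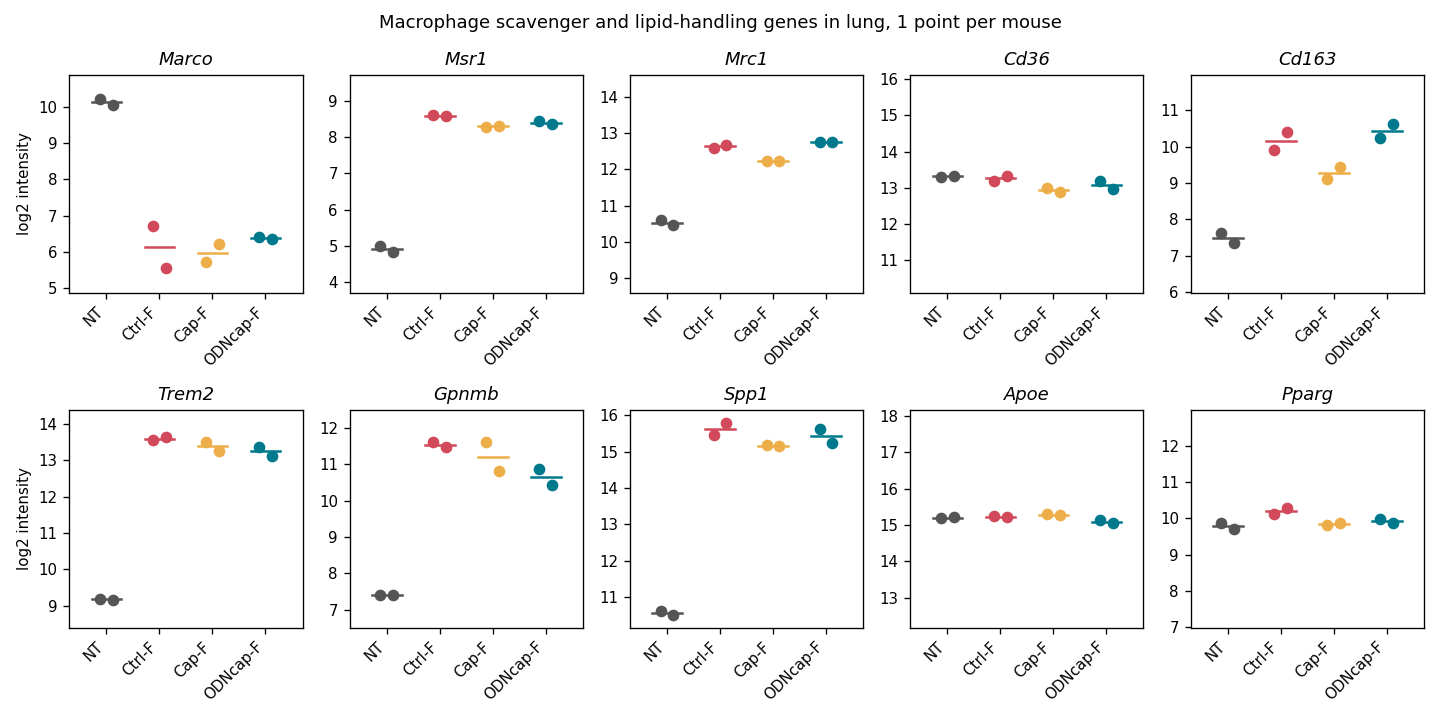
Log2 intensity (vertical axis, quantile normalized, with the same span in each panel) of the brightest probe of each gene in the 4 groups. Points are the 2 mice of a group and lines their mean. Marco lies lower, and Msr1, Mrc1, Cd163, Trem2, Gpnmb and Spp1 higher, in the 6 challenged mice than in both NT mice.

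Marco (NM_010766, chromosome 1) encodes the macrophage receptor with collagenous structure, a class A scavenger receptor of resident alveolar macrophages that binds inhaled particles and bacteria. On the log2 scale, the NT mice were at 10.20 and 10.04, the Ctrl-F mice at 6.73 and 5.55, the Cap-F mice at 5.71 and 6.23, and the ODNcap-F mice at 6.41 and 6.36. Each challenged mouse lay over 3 log2 units below both NT mice, and neighboring challenged groups overlapped. The log2 difference from NT was -3.98 in Ctrl-F (SE 0.379, adjusted p = 0.000353), or 15.8-fold lower. It was -4.15 in Cap-F (adjusted p = 0.000364) and -3.74 in ODNcap-F (adjusted p = 0.000491). Among the 10 genes Marco had the widest spread within a group, 1.17 log2 units between the Ctrl-F mice. Marco was also the only 1 of the 10 called lower. Its fall was called in all 20 alternative settings in each of the 3 comparisons, with log2 differences between -2.92 and -4.57.

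Msr1 (NM_031195, chromosome 8) encodes scavenger receptor A, the class A receptor for oxidized and acetylated low-density lipoprotein. By log2 level, the NT mice were at 5.004 and 4.83, the Ctrl-F mice at 8.59 and 8.59, the Cap-F mice at 8.27 and 8.31, and the ODNcap-F mice at 8.44 and 8.34. Both NT mice lay far below every challenged mouse, so that the class A receptors Marco and Msr1 moved in opposite directions. The log2 difference was 3.67 in Ctrl-F (SE 0.0833, adjusted p = 4.98e-06), 3.38 in Cap-F and 3.48 in ODNcap-F. A second probe of the same transcript gave 3.91, 3.64 and 3.599 and was called each time. The size depended on the background correction: with normexp the differences of the brighter probe were 2.21, 1.96 and 2.01, still called. In NT the second probe was at 4.40 and 3.93, near the detection floor, a log2 value of 3.61 to 3.64 on those arrays. The brighter probe lay further above that floor. Both probes were well above background in both NT mice.

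Mrc1 (NM_008625, chromosome 2) encodes the mannose receptor CD206, which binds mannose-bearing glycoproteins and is raised by interleukin-4. In log2 units, the NT mice were at 10.61 and 10.46, the Ctrl-F mice at 12.60 and 12.68, the Cap-F mice at 12.23 and 12.23, and the ODNcap-F mice at 12.75 and 12.74. No 2 groups overlapped, and the order from the highest was ODNcap-F, Ctrl-F, Cap-F and NT. Mrc1 rose by a log2 difference of 2.11 in Ctrl-F (SE 0.0773, adjusted p = 1.63e-05), 1.70 in Cap-F and 2.21 in ODNcap-F.

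Cd163 (NM_053094, chromosome 6) encodes the receptor for haptoglobin-bound hemoglobin, found on tissue macrophages. On the log2 scale, the NT mice were at 7.61 and 7.33, the Ctrl-F mice at 9.92 and 10.40, the Cap-F mice at 9.11 and 9.43, and the ODNcap-F mice at 10.23 and 10.62. The Cap-F mice lay between NT and the other challenged mice without overlap. The log2 difference from NT was 2.69 in Ctrl-F (SE 0.224, adjusted p = 0.000222), 1.80 in Cap-F (adjusted p = 0.00112) and 2.96 in ODNcap-F (adjusted p = 0.000186), and each was called. A second, dimmer probe was not well above background in either NT or either Cap-F mouse, and it passed the background filter only through Ctrl-F and ODNcap-F. Relative to NT, the level of that probe was at least 3.52-fold higher for Ctrl-F. For ODNcap-F it was at least 2.99-fold higher. Such bounds set the mean of the brighter group against the array floor or the probe's own signal, whichever is higher.

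Cd36 (NM_007643, chromosome 5) encodes a class B scavenger receptor and fatty acid translocase, present in macrophages but also in capillary endothelium, adipocytes and cardiomyocytes. In log2 levels, the NT mice were at 13.30 and 13.32, the Ctrl-F mice at 13.19 and 13.34, the Cap-F mice at 13.01 and 12.89, and the ODNcap-F mice at 13.19 and 12.96. The NT and Ctrl-F mice overlapped, and the Cap-F and ODNcap-F mice lay below both NT mice. The log2 difference from NT was -0.049 in Ctrl-F (95% interval -0.30 to 0.21, adjusted p = 0.702), which turned to 0.13 with scaling to the 75th percentile, -0.37 in Cap-F (adjusted p = 0.0263) and -0.24 in ODNcap-F (adjusted p = 0.0955). None reached a fold change of 2. All 8 capillary endothelium markers were lower at an adjusted p under 0.05 in limma in each of the 3 comparisons. Of them, 5 (Ednrb, Kdr, Gpihbp1, Cldn5 and Cdh5) were called lower each time. The mean log2 level of this list was 12.99 to 13.02 in NT and 11.72 to 11.99 in the challenged mice. Adipocyte markers (Adipoq, Plin1, Cfd, Lep, Retn, Cidec and Fabp4) had a mean log2 level of 8.27 to 8.65 in NT, 6.35 to 6.89 in Ctrl-F, 6.27 to 7.89 in Cap-F and 7.67 to 8.60 in ODNcap-F. Cardiomyocyte markers, such as Myh6 and Tnnt2, had 9.65 to 10.43, 7.85 to 8.29, 7.96 to 9.87 and 9.44 to 10.03 in the same order. The part of these cells in the Cd36 signal was not tested.

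The RefSeq windows around the start sites of the members were searched for 5 short motifs. The stretches printed here are those of the 3 genes with the largest rise in Ctrl-F against NT and of Marco. The letters run 5′ to 3′ over the 250 bases before the start site on build GRCm38.p6, for Spp1 chr5:104434861-104435110 (+ strand), Trem2 chr17:48346151-48346400 (+ strand), Gpnmb chr6:49036268-49036517 (+ strand) and Marco chr1:120505025-120505274 (- strand). Capitals mark the motifs GAGGAAGT in Spp1 and TGAATCA in Trem2.
Spp1: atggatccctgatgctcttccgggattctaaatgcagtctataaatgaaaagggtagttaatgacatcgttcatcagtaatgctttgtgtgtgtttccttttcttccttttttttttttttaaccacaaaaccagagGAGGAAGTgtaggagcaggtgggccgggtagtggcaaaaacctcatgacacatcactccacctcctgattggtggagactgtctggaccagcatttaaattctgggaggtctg
Trem2: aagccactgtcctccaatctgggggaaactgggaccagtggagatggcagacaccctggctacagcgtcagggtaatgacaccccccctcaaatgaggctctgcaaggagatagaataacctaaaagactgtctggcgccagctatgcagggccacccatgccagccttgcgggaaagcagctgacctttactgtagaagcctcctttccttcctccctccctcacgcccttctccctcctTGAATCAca
Gpnmb: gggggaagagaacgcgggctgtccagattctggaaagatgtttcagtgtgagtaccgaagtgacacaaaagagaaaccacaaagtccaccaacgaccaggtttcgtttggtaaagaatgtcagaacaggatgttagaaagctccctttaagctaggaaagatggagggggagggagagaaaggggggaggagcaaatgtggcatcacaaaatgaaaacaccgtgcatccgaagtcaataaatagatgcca
Marco: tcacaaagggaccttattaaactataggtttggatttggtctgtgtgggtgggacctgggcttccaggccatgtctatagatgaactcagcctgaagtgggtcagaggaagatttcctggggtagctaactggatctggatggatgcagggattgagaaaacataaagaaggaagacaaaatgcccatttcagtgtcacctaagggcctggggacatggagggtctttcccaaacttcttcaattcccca

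Windows existed for 9 of the 10 genes, 14 windows in all, each with 250 bases before and 50 after the start site, and both strands were read. TGANTCA, a looser form of the AP-1 motif with any middle base, was found in Trem2, as TGAATCA, at base -9. It was found in Gpnmb, as TGACTCA, at base 9 after the start site. With any middle base it was in 7.81% of 32851 promoters in all. GAGGAAGT, a motif of ETS factors such as PU.1, was found at base -113 of Spp1, against 3.202% of all promoters. The STAT6-type motif was found in Cd36 at base 21, against 6.95%. CACGTG, the E-box that the lysosomal regulator TFEB and other factors bind, was in 0 of the 14 windows and 7.15% of all promoters. The PPAR and RXR direct repeat was in 0 of the 14 windows and 0.04% of all promoters. No match overlapped another, since no window held more than 1. A match shows these letters and not a site that is bound.

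Spp1 (NM_009263, chromosome 5) encodes osteopontin, a secreted phosphoprotein that binds integrins and CD44. By log2 level, the NT mice were at 10.60 and 10.51, the Ctrl-F mice at 15.45 and 15.80, the Cap-F mice at 15.19 and 15.15, and the ODNcap-F mice at 15.63 and 15.24. All 6 challenged mice lay over 4 log2 units above the NT mice, and no other member rose more. The log2 difference was 5.07 in Ctrl-F (SE 0.167, adjusted p = 1.17e-05), or 33.5-fold. It was 4.61 in Cap-F, or 24.4-fold, and 4.88 in ODNcap-F, or 29.4-fold.

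Trem2 (NM_001272078, chromosome 17) encodes the triggering receptor expressed on myeloid cells 2, a receptor for lipids, lipoproteins and dying cells that signals through the adaptor TYROBP. In log2 units, the NT mice were at 9.18 and 9.16, the Ctrl-F mice at 13.55 and 13.63, the Cap-F mice at 13.50 and 13.26, and the ODNcap-F mice at 13.37 and 13.12. Both Ctrl-F mice were the highest, and the Cap-F and ODNcap-F mice overlapped. The log2 difference was 4.42 in Ctrl-F (SE 0.118, adjusted p = 6.47e-06), or 21.5-fold, 4.21 in Cap-F and 4.08 in ODNcap-F.

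Gpnmb (NM_053110, chromosome 6) encodes a transmembrane glycoprotein of lysosomes and the cell surface that increases in lipid-laden macrophages. On the log2 scale, the NT mice were at 7.40 and 7.40, the Ctrl-F mice at 11.60 and 11.48, the Cap-F mice at 11.61 and 10.80, and the ODNcap-F mice at 10.88 and 10.43. The NT mice were almost equal and far below, while the challenged mice spanned over 1 log2 unit. The log2 difference was 4.14 in Ctrl-F (SE 0.277, adjusted p = 0.000107), 3.81 in Cap-F and 3.26 in ODNcap-F.

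Apoe (NM_009696, chromosome 7) encodes apolipoprotein E, which carries cholesterol out of macrophages and is recognized by the low-density lipoprotein receptor family. By log2 level, the NT mice were at 15.18 and 15.21, the Ctrl-F mice at 15.24 and 15.21, the Cap-F mice at 15.30 and 15.28, and the ODNcap-F mice at 15.13 and 15.06. All 8 mice lay within 0.3 log2 units at the bright end of the array. The log2 difference from NT was 0.027 in Ctrl-F (95% interval -0.13 to 0.18, adjusted p = 0.733), 0.088 in Cap-F (-0.067 to 0.24, adjusted p = 0.275) and -0.10 in ODNcap-F (-0.26 to 0.053, adjusted p = 0.208). With scaling to the 75th percentile these were 0.41, 0.35 and 0.25, each under a fold change of 2. The last then had an adjusted p of 0.0195 in limma, so the Apoe result depended on the scaling. A second Apoe probe (NM_001305843) gave -0.071, 0.045 and -0.25, of which the last had an adjusted p of 0.0286 without a fold change of 2.

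Pparg (NM_011146, chromosome 6) encodes PPARγ, the nuclear receptor that drives lipid metabolism in alveolar macrophages and adipocytes. In log2 units, the NT mice were at 9.87 and 9.70, the Ctrl-F mice at 10.13 and 10.29, the Cap-F mice at 9.82 and 9.87, and the ODNcap-F mice at 9.998 and 9.86. Both Ctrl-F mice lay above all others, and the remaining groups overlapped. The log2 difference was 0.43 in Ctrl-F (SE 0.0983, adjusted p = 0.0109), under a fold change of 2, 0.061 in Cap-F (adjusted p = 0.621) and 0.15 in ODNcap-F (adjusted p = 0.241). The mean level of the adipocyte markers, given beside Cd36, was lower in Ctrl-F than in NT. Of the 7, 4 fell and Retn (resistin) rose by 1.05 on the log2 scale (adjusted p = 0.00858), while Fabp4 and Lep differed by 0.36 and 0.15 and were not called. Their part in the Pparg signal was not tested.

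**Figure D2:**
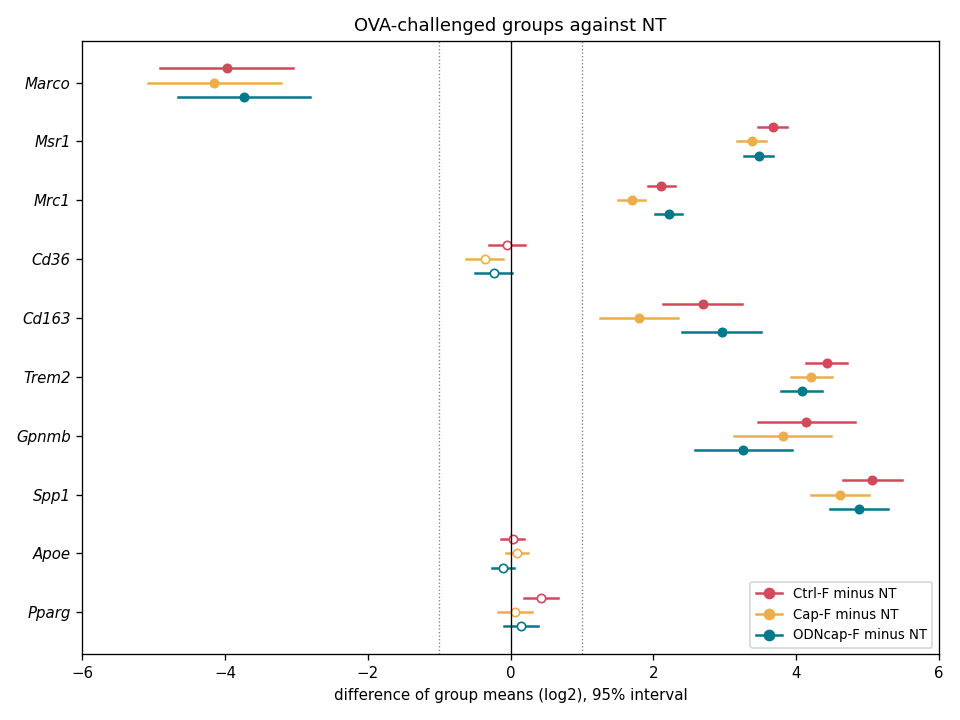
Log2 difference of group means, challenged group minus NT (horizontal axis), for each gene, with 95% intervals from limma. Filled points passed the adjusted p and the fold change, open points did not, and dotted lines mark a fold change of 2. Marco lies at -3.74 to -4.15 and Spp1 at 4.61 to 5.07.

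The order of the groups was then read within each gene. NT was the lowest group of the 6 genes that rose, and the highest for Marco and Cd36. Cap-F was the lowest challenged group for Marco, Msr1, Mrc1, Cd36, Cd163, Spp1 and Pparg, and ODNcap-F for Trem2, Gpnmb and Apoe. Neighboring groups overlapped in several of these orders. For Marco no challenged group was apart from the next, for Gpnmb Ctrl-F, Cap-F and ODNcap-F each overlapped the next, and for Cd163 and Spp1 ODNcap-F and Ctrl-F overlapped.

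The effect of the particle feeds was addressed by comparing the challenged groups with each other. No member was called. ODNcap-F against Ctrl-F gave 0 of 10 genes, beside 0% of all genes, and 3 members had an unadjusted p under 0.05 in limma (Gpnmb, Trem2 and Pparg), beside 6.78% of all genes. ODNcap-F set against Cap-F also gave 0 of 10, beside 0.00345% of all genes, and 3 had an unadjusted p under 0.05 (Mrc1, Cd163 and Apoe), beside 13.4%. Cap-F set against Ctrl-F gave 0 of 10, beside 0.00345%, and 6 had an unadjusted p under 0.05 (Mrc1, Cd163, Pparg, Msr1, Cd36 and Spp1), beside 16.6%. By the local-pooled-error test, 0, 1 and 0 members were called in these comparisons, beside 0.459%, 0.362% and 0.486% of all genes.

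By the brightest probe of each gene, the largest difference among the challenged groups was that of Cd163 between ODNcap-F and Cap-F. Both ODNcap-F mice lay above both Cap-F mice, by a log2 difference of 1.16 (SE 0.224, 95% interval 0.61 to 1.71), or 2.23-fold. It was not called, since limma gave an adjusted p of 0.218 (0.00214 unadjusted). Over the 20 alternatives its log2 difference lay between 0.96 and 1.35, and it was called in 2 of them, at an unadjusted p and by the local-pooled-error test (adjusted p = 4.15e-07), in which the variance comes from other probes of like brightness. The dimmer Cd163 probe passed the background filter only through Ctrl-F and ODNcap-F, so its differences from Cap-F are no separate support. Its floor bound was at least 2.22-fold higher with ODNcap-F than with Cap-F, and it was not called (adjusted p = 0.123 in limma). Such a bound takes no account of the spread between the mice. By the same probe Cap-F was at least 2.62-fold lower than Ctrl-F, with an adjusted p of 0.0967, and ODNcap-F differed from Ctrl-F by -0.24, opposite in sign to the brighter probe. Across the slide rows, in Cap-F against Ctrl-F, Cd163 was lower by a log2 difference of -0.89 (95% interval -1.44 to -0.34, adjusted p = 0.184). In ODNcap-F against Ctrl-F the brighter probe gave 0.27 (95% interval -0.28 to 0.82, adjusted p = 0.852).

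Mrc1 had a smaller difference with less spread. Its log2 difference was 0.52 in ODNcap-F against Cap-F (SE 0.0773, 95% interval 0.33 to 0.71, adjusted p = 0.180) and -0.41 in Cap-F against Ctrl-F (95% interval -0.60 to -0.22, adjusted p = 0.148). Gpnmb was lower in both ODNcap-F mice than in both Ctrl-F mice, by a log2 difference of -0.88 (SE 0.277, 95% interval -1.56 to -0.20, adjusted p = 0.736). Trem2 differed by -0.35 in the same comparison (95% interval -0.64 to -0.058, adjusted p = 0.740). None of these passed the test, and the intervals of Gpnmb and Cd163 reach past a fold change of 2.

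For the remaining genes the intervals bound what 2 mice per group could show. Marco had the widest, in ODNcap-F against Ctrl-F from -0.69 to 1.17 around 0.24. Spp1 lay between -0.60 and 0.22 in ODNcap-F against Ctrl-F and between -0.14 and 0.68 in ODNcap-F against Cap-F. Msr1 lay between -0.40 and 0.0082 in ODNcap-F against Ctrl-F and between -0.11 and 0.30 in ODNcap-F against Cap-F. Cap-F against Ctrl-F, a comparison across the slide rows, gave a lower mean in Cap-F for 9 of the 10 genes. Over all genes 14301 of 28992 were lower. The median log2 difference was -0.32 beside 0.0030 over all genes. The 10 genes were read on the same mice and are not independent. Groups stood apart for 7 genes lower and 1 higher there, where 25.8% of all genes were apart and lower and 25.9% apart and higher.

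**Figure D3:**
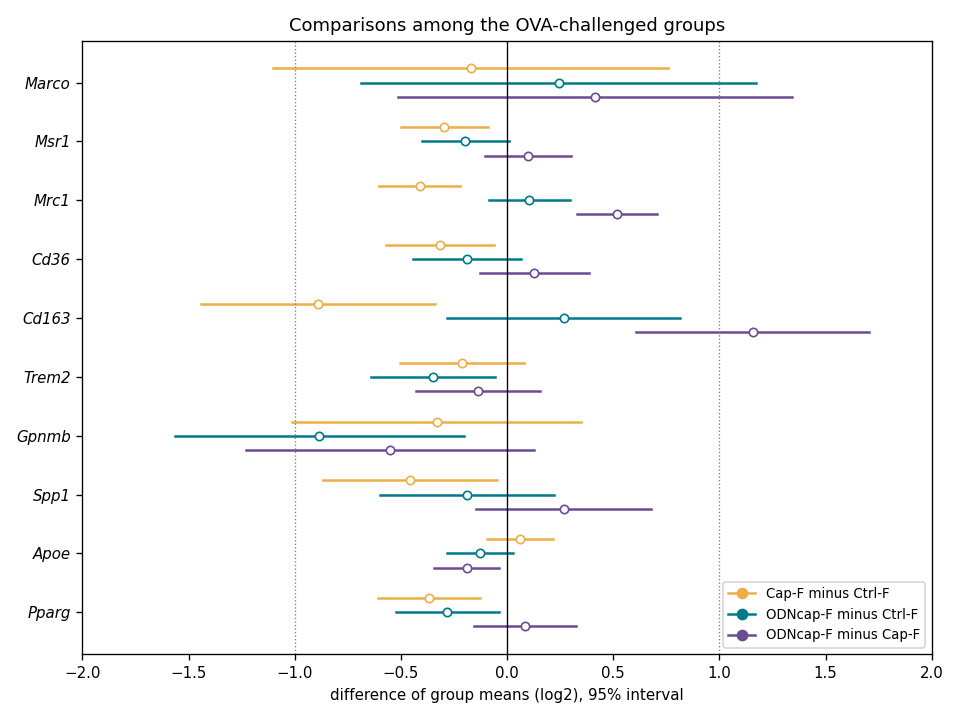
Log2 difference of group means (horizontal axis) among the challenged groups for each gene, with 95% intervals from limma. All points are open because no gene passed the adjusted p, and dotted lines mark a fold change of 2. Cd163 in ODNcap-F minus Cap-F is at 1.16 and Gpnmb in ODNcap-F minus Ctrl-F at -0.88.

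Genes that mark macrophages were read beside the members. Over all genes, 10.5% were called higher and 12.2% lower in Ctrl-F against NT. The shares were 9.74% and 9.87% in Cap-F against NT and 9.86% and 10.8% in ODNcap-F against NT. They apply to the list counts above and below. Of 10 macrophage identity genes 5 were called higher and 1 lower in each challenged group against NT. Cd68, a lysosomal glycoprotein, rose by 2.22, Lgals3 (galectin-3) by 2.09 and Spi1 (the transcription factor PU.1) by 1.98 on the log2 scale in Ctrl-F. Lyz2, which encodes lysozyme, fell by 1.31, and Csf1r, the receptor that maintains macrophages, differed by 0.67 without a fold change of 2. The mean log2 level of this list was 11.02 to 11.08 in NT and 11.74 to 11.88 in the challenged mice. The part of cell number in the changes of the members was not tested.

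Of 16 alveolar macrophage genes 9 were called higher and 2 lower in Ctrl-F, and 10 and 1 in ODNcap-F. Ctsk (cathepsin K) rose by 3.94, Itgax (CD11c) by 3.37 and Olr1 (the oxidized lipoprotein receptor LOX-1) by 3.30. Cidec, a lipid droplet protein that the adipocyte list also holds, fell by 4.48, and Plet1 fell by 1.56. Marco moved against most of the genes listed with its cell type, and with Cidec and Plet1. Siglecf, which eosinophils also carry, differed by 0.95 and was not called in Ctrl-F.

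Of 13 interstitial and monocyte-derived macrophage genes 7 were called higher and 0 called lower in each challenged group. C1qa rose by 2.86 and C1qc by 2.85 on the log2 scale in Ctrl-F, both encoding complement C1q chains. Of 15 lipid-associated macrophage genes 9 were called higher for Ctrl-F, 8 for Cap-F and 7 for ODNcap-F, and 0 were called lower. Mmp12 (macrophage elastase) rose by 7.77, Itgax by 3.37 and Cst7 (cystatin F) by 2.96, the sizes given for Ctrl-F on the log2 scale. Cd9, Axl and Lpl of the same list were not called, with log2 differences of -0.66, -0.45 and 0.42. Cd9 and Axl were lower at an adjusted p under 0.05 in limma, without a fold change of 2.

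The alternatively activated list, genes that interleukin-4 and interleukin-13 raise in macrophages, had 10 of 13 called higher and 0 called lower in each challenged group. Arg1 (arginase 1) rose by 8.70, Chil4 (a chitinase-like protein) by 7.31 and Ccl24 (eotaxin-2) by 6.85 in Ctrl-F, each a larger difference than that of Mrc1. Some of these genes are also made by airway epithelium.

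The other scavenger receptors moved less than the members, and both lists were chosen with earlier results of these data known. Of 14 measured 4 were called higher (Olr1, Cd5l, Cxcl16 and Cd68) and 1 lower (Scara5) in Ctrl-F, with a median log2 difference of -0.034. Scara5, a ferritin receptor, was not well above background in the Ctrl-F mice and was at least 3.92-fold lower there. Cd5l, a secreted lipid-regulating macrophage protein, rose by 1.74 (adjusted p = 0.0489) in Ctrl-F and was not called in Cap-F or ODNcap-F. Scarb1 and Stab1, a class B and a class H receptor, differed by 0.12 and -0.14 and were not called. Clec7a had no probe matched, and Megf10 was below the filter on background.

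Genes of lipid uptake, storage and efflux had 3 of 23 called higher and 3 lower in Ctrl-F, shares near the 10.5% and 12.2% of all genes. Their median log2 difference was -0.089. Apoc2, the activator of lipoprotein lipase, rose by 3.35, Fabp5 by 1.28 and Lipa (lysosomal acid lipase) by 1.15. Pltp (phospholipid transfer protein) fell by 2.69, Cyp27a1 (sterol 27-hydroxylase) by 1.61 and Pdk4 by 1.45. The cholesterol exporters Abca1 and Abcg1, which work beside Apoe, differed by 0.14 and -0.09 and were not called. Of the partners of Pparg, Rxra differed by -0.87 and was not called.

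Ligands and partners of the members had 9 of 22 called higher and 1 lower for Ctrl-F, 9 and 1 for Cap-F and 7 and 1 for ODNcap-F. Lrp8, an Apoe receptor, was not well above background in NT and was at least 4.64-fold higher in Ctrl-F. Hmox1, which breaks down the heme taken up through Cd163, rose by 2.32 and Csf2rb, the receptor chain for the growth factor GM-CSF, by 1.96. Hp (haptoglobin), whose hemoglobin complex Cd163 binds, fell by 1.32. Tyrobp, the adaptor of Trem2, rose by 1.19, and Cd44, a receptor of osteopontin, by 1.32, while the osteopontin-binding integrin chains Itgav and Itgb3 differed by 0.04 and 0.20 and were not called. Among the challenged groups, 0 of 166 genes of all the lists were called in limma in any of the 3 comparisons. At an unadjusted p under 0.05 in limma there were 20 in ODNcap-F against Ctrl-F, beside 6.78% of all genes. There were 18 in ODNcap-F against Cap-F, beside 13.4%, and 20 in Cap-F against Ctrl-F, beside 16.6%. The local-pooled-error test called 9, 9 and 7 in the same order, beside 0.459%, 0.362% and 0.486% of all genes. They were mostly adipocyte and cardiomyocyte genes (Adipoq, Cfd, Cidec, Myh6, Myl4, Myl7, Nppa, Tnni3 and Tnnt2 in ODNcap-F against Ctrl-F).

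Some markers of other leukocytes were also higher in the challenged mice. Eosinophil genes had 5 of 6 called higher in Ctrl-F. Their mean log2 level was 6.67 to 7.20 in NT and 9.57 to 9.94 in the challenged mice. Lymphocyte genes had 4 of 7 called higher in Ctrl-F, at 9.14 to 9.57 in NT and 11.11 to 11.38 in the challenged mice. Neutrophil genes had 1 of 6 called higher and a median log2 difference of -0.32 in Ctrl-F, with a mean log2 level of 11.58 to 11.87 in NT and 11.41 to 11.99 in the challenged mice. Dendritic cell genes had 2 of 7 called higher and a median of 0.05, at 7.47 to 7.53 in NT and 7.85 to 8.16 in the challenged mice. What these cells add to the signal of the members was not tested.

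**Figure D4:**
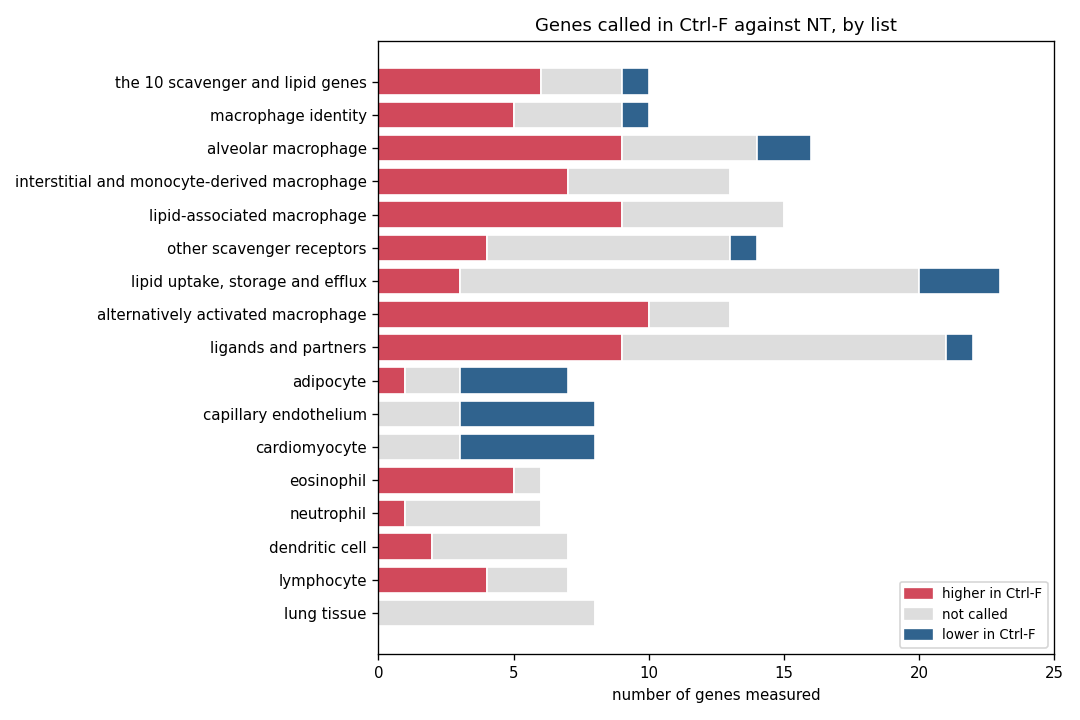
Number of measured genes (horizontal axis) of each list that were called higher, not called or called lower in Ctrl-F against NT. Of the 10 scavenger and lipid genes 6 were called higher and 1 lower, and of the lipid-associated macrophage list 9 of 15 were called higher and 0 lower.

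The genes whose levels followed the members most closely over the 8 arrays were found among 16570 named genes by Pearson correlation. All points share their arrays, and for the members that changed the NT mice form a cluster of their own, so the coefficient within the 6 challenged mice is given as a description, with no test. Marco was closest to Il18 (0.89 within the challenged mice) and Otop1 (0.87). Trem2 was closest to Batf3 (0.98) and Ctsb, the lysosomal protease cathepsin B (0.97). Msr1 was closest to Nusap1 (0.94) and Ckap2 (0.94), which encode spindle proteins. For Mrc1 the closest were Prrc1 (0.99) and Psat1 (0.94), for Cd163 Mapk13 (0.98) and Cryaa (0.98), and for Gpnmb Rnf149 (0.95) and Pgam1 (0.97). For the members that were not called, the closest included Gamt (0.96) for Cd36, and were Phactr3 (0.97) and Ptcd3 (0.93) for Apoe, and G6pd2 (0.96) and Polr1a (0.96) for Pparg.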

How the data were processed

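Lung RNA of 8 mice, 2 per group, was hybridized to 8 arrays of 1 slide. For each spot the authors deposited the background-subtracted intensity of Agilent Feature Extraction 11.0, without normalization between arrays, and 1 table of log2 values of 32312 probes after quantile normalization and a filter the methods do not describe. Quantile normalization of those probes alone gave log2 values that differed from that table by a median of 3.23e-07 and at most 0.125. The values in the text were instead normalized over all 56605 probes, and their difference from that table is not given here. Control spots were left out, 792 flagged spot values were set to missing, and log2 intensities were averaged over the spots of a probe and quantile normalized. A probe was kept, as 37116 of 56605 were, if both arrays of some group showed it well above background. Names came from a RefSeq table of another build than the array design, and 65.4% of kept probes matched. The brightest probe stands for a gene.

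A single fit of all arrays (limma 3.58.1 in R 4.3.3) had 4 groups, 6 comparisons and 4 residual degrees of freedom, and p-values were Benjamini-Hochberg adjusted over all kept probes of a comparison. They rest on a single variance per probe, pooled over the 2 mice of each of the 4 groups. That variance was moderated toward the other probes, with 1.96 prior degrees of freedom. The SE of a gene is therefore the same in each comparison and is not the spread of the 2 groups compared. The number of arrays limits the precision. Both limma and the rebuilt local-pooled-error test were run on simulated arrays of the brighter probes. There, noise was drawn independently for each probe, and changes were planted only in Ctrl-F and read against NT. The simulation does not bear on the differences among the challenged groups. The members and the gene lists were chosen with earlier results of these data known. Named by rule were all members, up to 3 called genes with the largest rise and 3 with the largest fall per list in Ctrl-F against NT, genes called among the challenged groups, and the 2 genes closest to each member. Some genes that this rule names are not reported here. Other genes in the text (Csf1r, Siglecf, Cd9, Axl, Lpl, Scarb1, Stab1, Abca1, Abcg1, Rxra, Tyrobp, Cd44, Itgav, Itgb3, Fabp4, Lep, Cxcl16, Cldn5, Cdh5 and those named by the local-pooled-error test) were picked for their role or to complete a count after their values were seen. Where both arrays of a group lay below background, a fold is a bound computed from the array floor. Alternatives were other scalings, background corrections (normexp, offset 50), filters, variance models, tests, probe rules, the deposited table and each array left out.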

Additional observations from a re-analysis of the deposited data

Results flagged for a closer look

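For the brighter Apoe probe, both Cap-F mice lay above both NT mice and both ODNcap-F mice below them. Neither difference from NT passed the test in limma, with 0.088 in Cap-F (adjusted p = 0.275) and -0.10 in ODNcap-F (adjusted p = 0.208) on the log2 scale. By the second probe the Cap-F difference was 0.045 and the mice overlapped. The log2 difference between ODNcap-F and Cap-F was -0.19 (SE 0.0633), with an adjusted p of 0.329 in limma, so that it did not pass the test. With scaling to the 75th percentile both groups had means above NT, by 0.35 in Cap-F and 0.25 in ODNcap-F.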

How the results depend on the processing

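The 7 members called against NT (Marco, Msr1, Mrc1, Cd163, Trem2, Gpnmb and Spp1) were called in all 20 alternatives in each of the 3 comparisons. Without the fold change, Pparg in Ctrl-F and Cd36 in Cap-F were added, which gave 8 members each. Of the comparisons among the challenged groups, only ODNcap-F against Cap-F gave a member in any alternative, namely 1 (Cd163) at an unadjusted p with the fold change and 1 (Cd163) by the local-pooled-error test. With any 1 array left out, the counts stayed at 7 against NT and 0 among the challenged groups. The sign of small differences turned in 11 cases. With scaling to the 75th percentile, Cd36 was 0.13 in Ctrl-F against NT. Apoe was then 0.25 in ODNcap-F against NT (adjusted p = 0.0195 in limma) and -0.060 in Cap-F against Ctrl-F. With the mean of the probes, Apoe was -0.022 in Ctrl-F against NT. With 1 array left out in turn, Cd36 lay between -0.12 and 0.024 in Ctrl-F against NT (the highest without Ctrl-F replicate 1) and Pparg between -0.023 and 0.15 in Cap-F against NT (the lowest without NT replicate 2). In Cap-F against Ctrl-F, Marco lay between -0.76 and 0.42 (0.42 without Ctrl-F replicate 1 and 0.088 without Cap-F replicate 1) and Gpnmb between -0.74 and 0.073 (the highest without Cap-F replicate 2). In ODNcap-F against Ctrl-F, Marco lay between -0.34 and 0.83 (the lowest without Ctrl-F replicate 2) and Spp1 between -0.39 and 0.0081 (the highest without ODNcap-F replicate 2). The cause was not tested.

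Over all genes, 6603, 5685 and 5999 were called against NT (Ctrl-F first, Cap-F second, ODNcap-F last), 3552, 3048 and 3146 with normexp, and 17941, 16395 and 17389 without the fold change. Among the challenged groups the counts were 0 to 1, against 105 to 141 by the local-pooled-error test and 186 to 284 at an unadjusted p. The replicate numbers were not used as pairs. Deviations of same-numbered mice correlated between -0.012 and 0.16, which cannot decide whether the mice were paired, and the labels do not say. With the replicate block 6589, 5689 and 5989 genes were called against NT, and no member changed its call. The adipocyte and cardiomyocyte counts in Ctrl-F against NT, 5 each, lay between 1 and 3 without any 1 array of NT, Ctrl-F or ODNcap-F. Signal over background limits the Msr1 level in NT and the dimmer Cd163 probe.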
